A study of Mus musculus with 36 samples.

Results

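Halofuginone was added to thapsigargin in wild-type mouse embryonic fibroblasts, and 3 libraries of the combination were compared with 3 libraries of thapsigargin alone across all genes. These 6 libraries are part of 36 bulk RNA-seq libraries in 12 groups of 3, from fibroblasts (MEF) labelled WT or PERK -/-, each treated with vehicle (DMSO), thapsigargin (Tg), BtdCPU, halofuginone, BtdCPU with Tg, or halofuginone with Tg. All groups of the main comparison are WT and received Tg, so DMSO appears here only as background. The 5 further groups that enter later comparisons are WT halofuginone without Tg, WT DMSO, WT BtdCPU with Tg, and the PERK -/- cells with Tg alone or with halofuginone and Tg. Doses, treatment times, the origin of the MEF lines and the way in which the PERK -/- line was made are not given in the sources used here, and the labels do not say that replicates came from separate cultures, so p-values measure the spread between these libraries. The deposited totals of the 36 libraries lay between 32454257 and 37178107 estimated counts. Of 36856 gene symbols, 16065 passed the filter on low counts and were tested.

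Both agents act on the integrated stress response (ISR). In this pathway, kinases that sense different stresses phosphorylate the initiation factor eIF2 alpha, which lowers general translation and raises translation of the transcription factor ATF4. ATF4 then raises transcription of its target genes. Thapsigargin empties the calcium store of the endoplasmic reticulum (ER) by blocking its calcium pump, which activates the ER kinase PERK (gene Eif2ak3) together with the sensors IRE1 and ATF6 of the unfolded protein response. Halofuginone occupies the proline site of the glutamyl-prolyl-tRNA synthetase (Eprs), so that uncharged tRNA builds up and activates the kinase GCN2 (Eif2ak4). BtdCPU is a further ISR activator described as acting through the kinase HRI (Eif2ak1). The question put by this comparison is which transcripts move when a second route into the ISR is added to cells in which Tg has already engaged the first.

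Eif2ak3, the gene targeted in the PERK -/- line, is reported first. Its level in CPM (counts scaled to library size with trimmed-mean, TMM, factors) was 79.1, 78.1 and 104 in the 3 WT Tg libraries and 91.7, 110 and 105 with halofuginone and Tg. In the PERK -/- cells it was 26.0, 25 and 31.2 with Tg and 32.7, 28.1 and 35.4 with both. Without Tg, WT cells had 30.3, 32.4 and 30.7 CPM with DMSO and 29.3, 32.7 and 55.5 CPM with halofuginone, in the range of the null libraries or above it, and Tg raised Eif2ak3 in WT by 1.49 ± 0.180 over DMSO (adjusted p = 4.44e-08). These levels therefore do not check the PERK -/- label, and a count over the whole gene does not show a deletion of part of it. Between the WT groups Eif2ak3 differed by a log2 fold change of 0.23 ± 0.175 (SE, n = 3 and 3) with an adjusted p of 0.301 in edgeR's quasi-likelihood test, the test used for every adjusted p below. Eif2ak4 (GCN2) and Eprs were also not called, at -0.0068 ± 0.127 (adjusted p = 0.976) and 0.079 ± 0.10 (adjusted p = 0.549).

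Addition of halofuginone to Tg changed a large part of the transcriptome. Genes of a cytokine, chemokine and NF-kB feedback list, immediate early genes, histone genes and growth-arrest genes rose, while targets of the antioxidant factor NRF2, ER chaperone and ER-associated degradation genes, genes of amino acid synthesis, nuclear-encoded respiratory chain genes and mitotic genes fell. At an adjusted p under 0.05, 7276 of 16065 tested genes (45.3%) were called, 3665 higher (22.8%) and 3611 lower (22.5%) with halofuginone. Of these, 1355 rose and 856 fell at least 2-fold. These percentages are the background against which the share of called genes in each group below is read. Leaving out the third library of halofuginone with Tg, which stood apart from the other 2 for several of the genes below, left 6010 calls. The third library was also the one apart in the WT Tg, halofuginone and DMSO groups. There the chi-square per degree of freedom between replicates 1 and 2 was 15.9, 14.2 and 17.6, against 36 to 77.8 for pairs with the third.

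**Figure D1:**
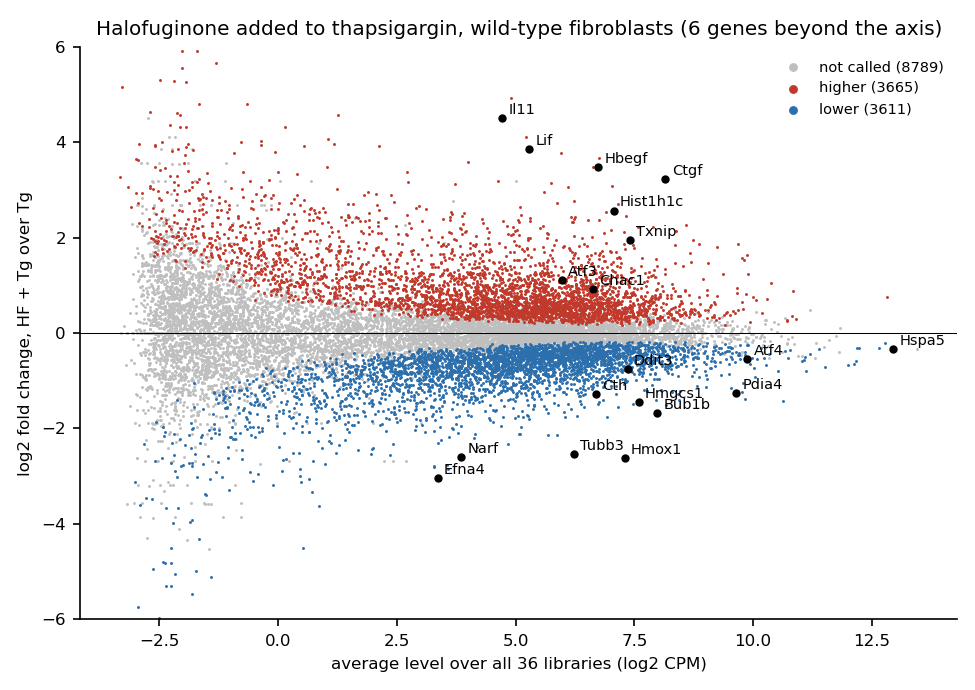
Each point is 1 of the 16065 tested genes, with its average level over all 36 libraries in log2 CPM on the x axis and its log2 fold change for halofuginone with Tg over Tg in WT cells on the y axis. Red and blue points are the 3665 genes called higher and the 3611 called lower, grey points were not called, labelled genes are described in the text, and 6 genes lie beyond the plotted range.

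The largest rises were in secreted factors and in regulators that are switched on early after a stimulus. Il11, a cytokine of the IL-6 family, was at 4.98, 6.97 and 4.50 CPM with Tg and at 133, 125 and 118 CPM with halofuginone and Tg. All 3 combination libraries were far above all 3 Tg libraries, a 22.8-fold rise with a log2 fold change of 4.51 ± 0.216 (adjusted p = 3.23e-16). The 2 groups differ here by much more than their replicates do, although Il11 overlaps Tmem190 and the labels do not say whether counting used the strand. The related cytokine Lif went from 7.80, 11.8 and 8.97 CPM to 157, 129 and 129 CPM, a log2 fold change of 3.86 ± 0.152 (adjusted p = 3.02e-18). Lack of overlap was a condition for listing both genes among the largest rises.

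Hbegf, a ligand of the epidermal growth factor receptor, was at 21.8, 15.7 and 27.1 CPM with Tg and at 247, 211 and 262 CPM with both, a log2 fold change of 3.48 ± 0.202 (adjusted p = 3.19e-14). Edn1, which encodes the vasoconstrictor peptide endothelin, rose from 1.79, 1.32 and 2.00 CPM to 15.5, 10.8 and 20.0 CPM. The groups did not overlap for either gene, as the choice of the largest rises required. Ctgf, a matrix-associated growth factor, rose by 3.23 ± 0.335 (adjusted p = 4.00e-09), Vgf, a neuropeptide precursor, by 3.14 ± 0.260, and Dkk2, a secreted modulator of Wnt signalling, by 3.12 ± 0.194 on the log2 scale. Stmn4, a tubulin-binding stathmin, was near the bottom of the measured range with Tg, at 0.712, 1.32 and 0.888 CPM, and stood at 16.0, 16.5 and 12.1 CPM with both. Its neighbours in size of change were Csrnp1, a nuclear protein induced early by growth signals (3.77 ± 0.224), Gadd45g, a growth-arrest and stress gene (3.67 ± 0.362), Tnfaip3, an inhibitor of NF-kB signalling (3.48 ± 0.289), and Dusp8, a phosphatase of MAP kinases (3.19 ± 0.214). Csrnp1 and Gadd45g stood highest in the third combination library, at 360 CPM against 213 and 203, and at 528 CPM against 258 and 252. With halofuginone alone the third library was also their highest, at 383 and 822 CPM.

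Of 22 cytokine, chemokine and NF-kB feedback genes tested, 20 rose and none fell, with a median log2 fold change of 1.49 against 0 over all tested genes. Beside Il11, Lif, Hbegf and Tnfaip3, the neutrophil chemokine Cxcl1 rose from 55.1, 74.8 and 14.7 CPM to 458, 362 and 169 CPM (2.77 ± 0.426, adjusted p = 3.51e-06). The third library was the lowest of its group in both arms. Ptgs2, the inducible cyclooxygenase of prostaglandin synthesis, rose from 630, 554 and 587 CPM to 2615, 1769 and 2069 CPM, and Nfkbia, the inhibitor that holds NF-kB in the cytoplasm, from 37.0, 47.2 and 46.8 CPM to 124, 114 and 183 CPM. The monocyte chemokines Ccl2 (1.34 ± 0.306) and Ccl7 (1.31 ± 0.278) rose with no overlap between groups. Cxcl2 and Cxcl5 were the 2 members not called, with log2 fold changes of 1.43 and 1.02, and Cxcl2 did not exceed 2.59 CPM in any of the 6 libraries.

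The promoters of Il11 and Cxcl1, as windows of 200 bases that end just before the transcription start (RefSeq, GRCm38.p6), are shown because both genes are secreted factors that rose strongly and whose window holds a match to a motif searched. Capitals mark the AP-1 motif TGANTCA in Il11 (chr7:4778142-4778341, minus strand) and the NF-kB motif in Cxcl1 (chr5:90891045-90891244, plus strand).
Il11 promoter: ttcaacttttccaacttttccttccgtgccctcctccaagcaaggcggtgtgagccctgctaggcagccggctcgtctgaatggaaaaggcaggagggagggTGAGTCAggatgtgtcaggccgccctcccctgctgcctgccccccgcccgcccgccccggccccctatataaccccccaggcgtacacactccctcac
Cxcl1 promoter: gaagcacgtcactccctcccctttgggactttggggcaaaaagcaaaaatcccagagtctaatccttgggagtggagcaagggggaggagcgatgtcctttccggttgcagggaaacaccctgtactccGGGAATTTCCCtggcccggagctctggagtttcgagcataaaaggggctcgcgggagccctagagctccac
In the 250 bases before the start, on either strand, the NF-kB motif was present in 8 of 15 cytokine-list genes with a promoter in the table and in 10.7% of all 11802 tested genes with one. The AP-1 motif was present in 4 of 15, against 6.39% of tested genes. Among genes called higher, called lower and not called, the NF-kB motif had shares of 10.8%, 9.74% and 11.1%. Those of the AP-1 motif were 7.44%, 5.12% and 6.49%. These letter matches describe the windows and show neither binding nor a cause.

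**Figure D2:**
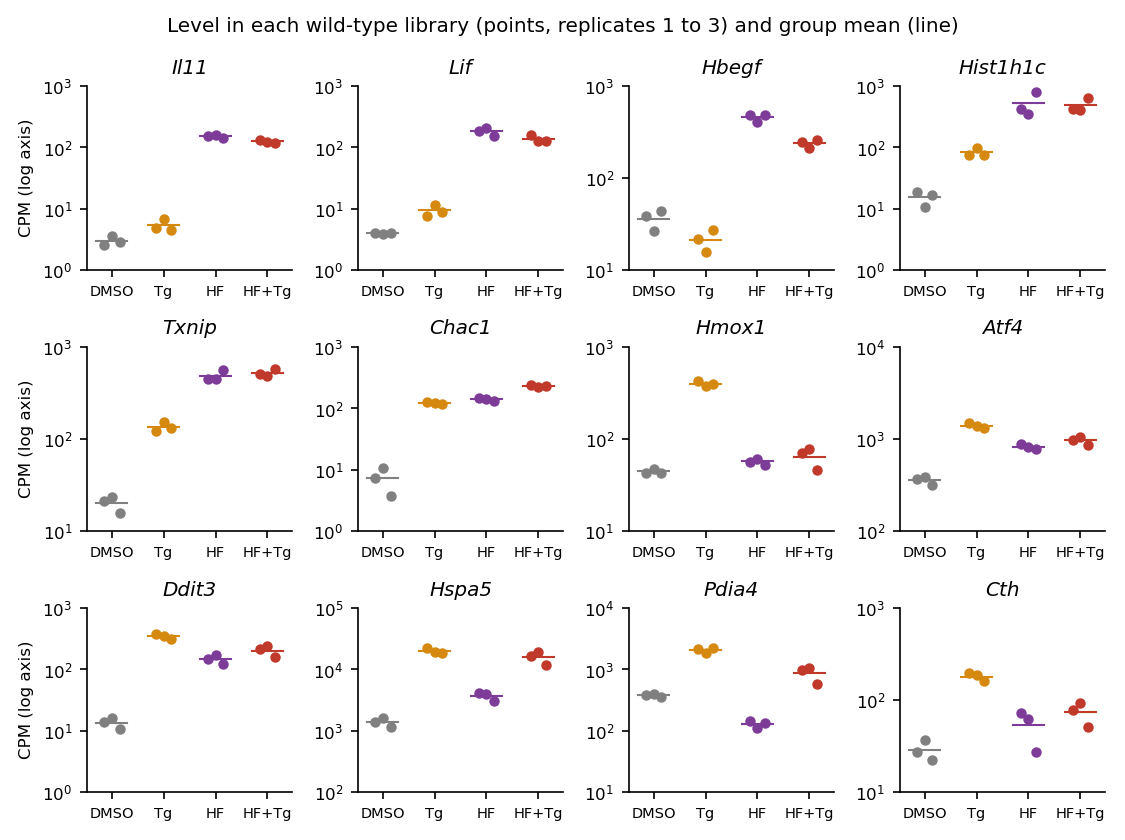
Level of 12 genes in CPM (log axis) in each WT library, with the 3 replicates of DMSO, Tg, halofuginone (HF) and halofuginone with Tg (HF+Tg) as points and the group mean as a line. For Il11, Lif and Hbegf the combination lies far above Tg, at 211 to 262 CPM for Hbegf against 407 to 482 CPM with halofuginone alone, and Hmox1 is high in the Tg libraries, at 374 to 429 CPM.

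Immediate early genes, which are transcribed within minutes of a growth or stress signal, and the feedback genes of ERK signalling rose as a group. Of 26 tested, 20 rose and none fell, with a median log2 fold change of 1.61 (1.37 without the third combination library). The zinc finger factor Egr1 stood at 11.8, 10 and 8.44 CPM with Tg and at 105, 61.7 and 85.0 CPM with both (3.06 ± 0.228, adjusted p = 6.19e-12). Its levels were 57.1, 42.9 and 44.6 CPM in DMSO and 356, 277 and 567 CPM with halofuginone alone. The AP-1 subunit Jun stood at 50.0, 46.4 and 46.4 CPM and at 246, 219 and 276 CPM (2.38 ± 0.134, adjusted p = 1.74e-14). In both genes the lowest combination library lay above the highest Tg library. Maff (2.53 ± 0.184), a small bZIP factor, and Klf6 (2.45 ± 0.176), a zinc finger factor, rose to a similar degree, while the ERK-activated factors Etv4 (0.24) and Etv5 (0.029) and the serum response factor Srf (-0.057) were not called.

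Dusp1, the phosphatase that switches off the stress kinases p38 and JNK, rose from 13.6, 13.3 and 10.2 CPM to 83.4, 66.9 and 80.1 CPM (2.64 ± 0.193, adjusted p = 4.06e-12). Its promoter (RefSeq, GRCm38.p6, chr17:26508473-26508672, minus strand) is shown with the full cAMP response element TGACGTCA, the site of CREB and ATF dimers, in capitals.
Dusp1 promoter: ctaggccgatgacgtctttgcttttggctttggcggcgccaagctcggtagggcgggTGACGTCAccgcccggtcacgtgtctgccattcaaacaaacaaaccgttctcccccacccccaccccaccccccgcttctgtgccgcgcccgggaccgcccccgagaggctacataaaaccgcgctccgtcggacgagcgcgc
This palindrome, searched in the 250 bases before the start, was found in 140 of 2794 genes called higher (5.01%), in 54 of 2813 called lower (1.92%) and in 2.45% of those not called. It occurred in 1.77% of all 27025 promoters in the table. The 3 classes had a median GC content of 60.4%, 59.6% and 58.8% over the searched bases. Genes with the same motif are not independent of each other, and no test was made on these shares.

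Growth-arrest and p53 target genes were mostly higher. Of 19 tested among 20 listed, 11 rose and 3 fell, with a median of 0.68. Btg2, an antiproliferative gene, rose from 9.41, 13.5 and 9.74 CPM to 44.2, 44.0 and 50.5 CPM (2.08 ± 0.162, adjusted p = 1.19e-11). Pmaip1, which encodes the pro-apoptotic BH3-only protein NOXA, rose from 3.53, 3.27 and 3.69 CPM to 14.5, 13.8 and 16.4 CPM (2.09 ± 0.302). The cyclin-dependent kinase inhibitor Cdkn1a (p21) rose by 0.90 ± 0.136 and the p53 ubiquitin ligase Mdm2 by 1.05 ± 0.131. Bax, an effector of mitochondrial permeabilization, fell by 0.42 on the log2 scale. The other falls, Cdkn1b and Sesn1, were not called without the third combination library, at -0.33 and -0.46, which left 1 gene called lower.

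Replication-dependent histone genes were higher by the largest median of any list, 2.07, with 19 of 21 called higher and none lower. The linker histone gene Hist1h1c stood at 75.1, 99.4 and 74.9 CPM with Tg and at 426, 409 and 646 CPM with both (2.57 ± 0.241, adjusted p = 5.36e-10). Hist1h1b stood at 2.01, 2.51 and 2.03 CPM and at 12.2, 12.4 and 25.1 CPM. The third combination library was the highest in both, and without it the list median was 1.66 with 16 genes called. Many histone genes are near-identical copies, so the split of counts between single members is uncertain.

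Genes of DNA replication moved in both directions, with 19 of 44 higher, 7 lower and a median of 0.24 (13 higher and 0.15 without the second combination library). Against DMSO, 34 of the 44 were lower and 0 higher with Tg, where 22.7% of all tested genes were lower and 24.9% higher. With both, 31 were lower and 6 higher than in DMSO, where 31.4% of all tested genes were lower and 34.3% higher. The helicase subunit Mcm3 stood at 254, 207 and 212 CPM with Tg and at 432, 411 and 417 CPM with both (0.91 ± 0.0985, adjusted p = 9.25e-09), against 375, 323 and 485 CPM in DMSO. Mcm4 (0.77 ± 0.107) and Mcm10 (0.94 ± 0.109) rose likewise over Tg. With both over DMSO, Mcm3 (0.090, adjusted p = 0.424) and Mcm4 (0.20, adjusted p = 0.103) were not called, and Mcm10 was higher (0.42, adjusted p = 0.00114). Dna2, a nuclease that trims replication intermediates, was at 3.74, 3.59 and 3.50 CPM with Tg and at 2.57, 1.27 and 0.907 CPM with both (-1.19 ± 0.300, adjusted p = 0.00153). Chaf1b, a subunit of the chromatin assembly factor, fell by 1.04, and the polymerase delta subunit Pold2 fell by 0.78 on the log2 scale. The 2 groups were separate for each of these genes.

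Genes of mitosis were lower, with 20 of 36 lower, 2 higher and a median of -0.41. Bub1b, a kinase of the spindle checkpoint, stood at 191, 196 and 236 CPM with Tg and at 61.9, 61.1 and 72.0 CPM with both (-1.68 ± 0.129, adjusted p = 9.68e-12). Cdc20, which activates the anaphase-promoting complex, stood at 197, 199 and 290 CPM and at 72.1, 89.0 and 83.4 CPM (-1.49 ± 0.145). Kif20a, a kinesin of cytokinesis that overlaps Cdc23 and Brd8, fell by 1.51, while Prc1, which bundles spindle midzone microtubules, rose by 0.65 ± 0.147 and the cytokinetic scaffold Anln by 0.47 ± 0.114. Mki67 (-0.24), Top2a (-0.13) and Ccnb1 (-0.21) were not called. In bulk RNA, fewer cells in a phase and less RNA per cell cannot be told apart.

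The largest falls held no single named group. Efna4, a membrane-bound ephrin ligand, stood at 15.5, 13.6 and 11.4 CPM with Tg and at 1.53, 1.84 and 1.5 CPM with both (-3.05 ± 0.211, adjusted p = 1.33e-12). The combination libraries were 8.28-fold lower, and lack of overlap with Tg was a condition for being listed here. Stard5, a sterol-binding protein, stood at 34.0, 31.5 and 22.5 CPM and at 4.47, 5.97 and 2.55 CPM (-2.76 ± 0.310), and Cbx2, a Polycomb subunit, at 9.41, 11.3 and 10.7 CPM and at 1.44, 1.98 and 1.05 CPM (-2.81 ± 0.235). Kantr, a noncoding RNA (-2.32 ± 0.240), and Skida1 (-2.56 ± 0.361) were low throughout, with means of 5.31 and 4.43 CPM with Tg and 1.06 and 0.748 CPM with both. Sapcd2 (-2.84), Cdc42ep2 (-2.78), a Cdc42 effector, Narf (-2.60), Tubb3 (-2.53), Fam69b (-2.40) and the semaphorin Sema4c (-2.33) completed the 12 largest falls together with Hmox1. Tubb3, the class III beta tubulin used as a neuronal marker, was at 223, 227 and 203 CPM with Tg and at 38.6, 53 and 20.8 CPM with both, against a mean of 60.4 CPM in DMSO.

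NRF2 is the transcription factor that drives antioxidant and glutathione genes. Of its 15 targets tested, 13 fell and none rose, with a median of -1.09, the lowest of all lists. Hmox1, the heme oxygenase, stood at 429, 374 and 394 CPM with Tg and at 70.3, 78.0 and 46.1 CPM with both (-2.62 ± 0.172, adjusted p = 3.91e-13). The combination was 6.16-fold below Tg and close to the 43.4, 47.5 and 43.3 CPM of DMSO. Gsta4, a glutathione transferase, fell by 2.20, from 44.4, 35.7 and 38.8 CPM to 9.12, 11.0 and 5.78 CPM, and G6pdx, the NADPH-producing enzyme that overlaps Ikbkg, fell by 1.54. The glutathione synthesis genes Gclc (-1.23 ± 0.105) and Gclm (-1.15 ± 0.120), the quinone reductase Nqo1 (-1.09 ± 0.130) and the thioredoxin reductase Txnrd1 (-0.58 ± 0.112) fell, whereas Srxn1 (0.25, adjusted p = 0.240) and Me1 (0.10) were not called. The antioxidant response element TGACNNNGC was found in 4 of 10 promoters of the list and in 13.7% of those of tested genes. Its share was 14.9% among genes called higher, 12.6% among those called lower and 13.6% among those not called.

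ISR target genes were called in both directions, at shares near those of all tested genes. Of 23 tested, 7 rose (30.4%, against 22.8% of all genes) and 5 fell (21.7%, against 22.5%). The median was 0.10, with leave-one-out values between -0.083 and 0.12. Atf4 itself stood at 1501, 1395 and 1327 CPM with Tg and at 992, 1050 and 865 CPM with both (-0.54 ± 0.107, adjusted p = 0.000119). Ddit3 (CHOP), a pro-apoptotic partner of ATF4, stood at 381, 344 and 309 CPM and at 212, 238 and 160 CPM (-0.76 ± 0.203, adjusted p = 0.00256), and Mars1 and Mbd6 overlap it. Both combination groups lay below Tg and above DMSO, where Atf4 was at 371, 393 and 317 CPM and Ddit3 at 13.9, 16.0 and 10.8 CPM. Ddit4 (REDD1), a brake on mTORC1, fell by 1.27, and Eif4ebp1, a translational repressor, by 0.53.

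Chac1, which degrades glutathione, moved the other way. It stood at 128, 123 and 117 CPM with Tg and at 237, 225 and 231 CPM with both (0.91 ± 0.195, adjusted p = 0.000283), with no overlap. Atf3, a repressor induced by ATF4, rose from 87.5, 84.6 and 77.5 CPM to 176, 179 and 181 CPM (1.10 ± 0.187), and the bZIP partner Cebpg rose by 0.93 ± 0.138. Txnip, the thioredoxin-interacting protein, rose from 122, 155 and 133 CPM to 510, 488 and 579 CPM (1.94 ± 0.325, adjusted p = 1.25e-05). Txnip shares its locus with the antisense gene Gm15441, and reads of the 2 cannot be told apart if counting ignored the strand. Gdf15, a secreted stress hormone, rose by 1.63 ± 0.359, from 2.11 to 3.57 CPM with Tg to 5.98 to 11.2 CPM. Trib3 (-0.26 ± 0.260, adjusted p = 0.443), Ppp1r15a (0.15, adjusted p = 0.599), Fgf21 (0.10) and Vldlr (0.10) were not called, and the Trib3 libraries overlapped, at 253, 233 and 188 CPM and at 198, 227 and 138 CPM.

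The Chac1 promoter (RefSeq, GRCm38.p6, chr2:119351042-119351241, plus strand) is shown because Chac1 rose while Atf4 fell. Capitals mark the composite C/EBP-ATF site TGATGNAAN, which lies on the opposite strand.
Chac1 promoter: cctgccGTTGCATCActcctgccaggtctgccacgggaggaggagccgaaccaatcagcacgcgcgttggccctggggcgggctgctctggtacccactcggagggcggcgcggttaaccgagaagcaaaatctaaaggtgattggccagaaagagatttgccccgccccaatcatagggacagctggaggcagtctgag
The composite site was found in 7 of 21 ISR-list promoters and in 2.74% of those of tested genes. Its shares among genes called higher (2.83%), called lower (2.28%) and not called (2.91%) were close to one another.

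Amino acid metabolism, a main output of ATF4, was lower or level. Of 16 synthesis genes 10 fell and none rose, with a median of -0.48. Cth, which makes cysteine from cystathionine, stood at 196, 186 and 160 CPM with Tg and at 78.8, 92.2 and 50.8 CPM with both (-1.29 ± 0.228, adjusted p = 2.68e-05). Pck2, the mitochondrial PEP carboxykinase, stood at 403, 384 and 378 CPM and at 169, 198 and 143 CPM (-1.19 ± 0.173). Combination and Tg libraries were separate in both. Aldh1l2, a mitochondrial folate enzyme, fell by 0.82, Psph and Phgdh of serine synthesis by 0.79 and 0.68, and the proline synthesis enzyme Pycr1 by 0.64 on the log2 scale. Asns, the asparagine synthetase, stood at 900, 817 and 828 CPM and at 853, 853 and 822 CPM (-0.0098 ± 0.103, adjusted p = 0.951), with overlapping groups. Psat1 (-0.28 ± 0.111, adjusted p = 0.0372) was called, but not without the third combination library (-0.22, adjusted p = 0.165), the first Tg library or the first combination library.

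Of 14 amino acid transporter genes 1 was called higher (7.14%) and 4 lower (28.6%), or 2 and 6 with the replicate number as a block. Of all tested genes 22.8% were higher and 22.5% lower. The single rise was lost without the first or the third combination library or the first or the second Tg library. The glycine transporter Slc6a9 stood at 274, 261 and 273 CPM with Tg and at 108, 104 and 64.2 CPM with both (-1.54 ± 0.201, adjusted p = 2.22e-07). Slc3a2, the shared heavy chain of several exchangers, stood at 1480, 1322 and 1383 CPM and at 789, 893 and 845 CPM (-0.73 ± 0.155). Slc7a11 (0.065), the cystine carrier, and Slc7a5 (-0.23), the leucine carrier, were not called. Among 20 cytosolic aminoacyl-tRNA synthetases, 4 were called higher (20.0%) and 6 lower (30.0%), not far from the shares of all tested genes. Qars (-0.73 ± 0.0819) and Wars (-0.72 ± 0.146) had the largest falls, and no rise was above the 0.44 of Iars. Leaving out the second Tg library left 0 higher and 6 lower, and leaving out the third combination library 2 and 4.

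Among 17 mitochondrial synthetases, Ears2 rose from 18.5, 19.8 and 16.7 CPM to 41.8, 48.0 and 40.2 CPM (1.24 ± 0.110, adjusted p = 1.91e-10), and Mars2, Wars2 and Nars2 also rose. Cars2, the cysteinyl member, fell from 56.6, 48.9 and 49.7 CPM to 19.6, 20.0 and 12.6 CPM (-1.57 ± 0.138). The list held called genes in both directions, 4 higher (23.5%) and 5 lower (29.4%), against 22.8% and 22.5% of all tested genes. There were 3 lower without the first or the third combination library or the first Tg library. Of 15 genes of the upstream machinery, 2 were higher (13.3%) and 3 lower (20.0%), both under the shares of all tested genes. The median was -0.077, and with the replicate number as a block 2 were higher and 5 lower. Among them, the eIF2B subunit Eif2b4 fell by 1.0 and Eif2b2 by 0.44. Ppp1r15b (CReP), a constitutive subunit of the eIF2 alpha phosphatase, rose from 75.4, 89.1 and 103 CPM to 165, 152 and 182 CPM (0.90 ± 0.0906, adjusted p = 2.15e-09).

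ER chaperone genes, which ATF6 and XBP1 raise when unfolded proteins build up in the ER, were lower than with Tg alone. Of 14 tested, 11 fell and none rose, with a median of -0.57. Pdia4, a disulfide isomerase, stood at 2167, 1873 and 2196 CPM with Tg and at 967, 1042 and 588 CPM with both (-1.26 ± 0.143, adjusted p = 1.87e-08), against 380, 394 and 363 CPM in DMSO. Hyou1, an ER-resident member of the HSP70 family, stood at 1936, 1719 and 2013 CPM and at 1088, 1196 and 783 CPM (-0.89 ± 0.130). The third combination library was the lowest of its group in both, and without it the list median was -0.45 with 10 genes lower. Dnajc3 (-0.86 ± 0.108), Hsp90b1 (-0.66 ± 0.122), Manf (-0.62 ± 0.131) and Calr (-0.50 ± 0.119) fell.

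Hspa5 (BiP), the central ER chaperone, was at the border of the threshold. It stood at 22341, 19330 and 18473 CPM with Tg and at 16463, 19132 and 12035 CPM with both (-0.34 ± 0.141, adjusted p = 0.0505), with overlapping groups. With the replicate number as a block it was called, at -0.36 with an adjusted p of 0.00119. Rabepk overlaps it. Its promoter (RefSeq, GRCm38.p6, chr2:34771890-34772089, plus strand) is shown with the ER stress element, CCAAT and CCACG with a spacer of 9 bases, in capitals.
Hspa5 promoter: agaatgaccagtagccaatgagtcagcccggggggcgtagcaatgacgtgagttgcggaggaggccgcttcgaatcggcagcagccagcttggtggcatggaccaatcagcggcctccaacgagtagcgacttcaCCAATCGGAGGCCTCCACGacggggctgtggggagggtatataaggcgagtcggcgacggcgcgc
This element was found in 7 of 11 promoters of the chaperone list, in 10 of 2813 promoters of genes called lower and in 2 of 2794 of genes called higher. Most genes of the chaperone list were themselves called lower, so the first 2 counts are not separate. The element occurred in 21 of 11802 promoters of tested genes (0.178%) and in 0.13% of all promoters in the table.

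Genes of ER-associated degradation, translocation and secretion followed, with 21 of 32 lower, 1 higher and a median of -0.50. Sel1l, the scaffold of the degradation ligase, stood at 288, 271 and 344 CPM with Tg and at 170, 170 and 124 CPM with both (-0.96 ± 0.158, adjusted p = 9.33e-06). The ER cochaperone Dnajb9 stood at 152, 144 and 165 CPM and at 115, 122 and 68.6 CPM (-0.60 ± 0.149, adjusted p = 0.00146). Xbp1 itself was the gene called higher, at 361, 369 and 303 CPM and at 468, 527 and 447 CPM (0.48 ± 0.141, adjusted p = 0.00553). A count over the gene does not separate the spliced from the unspliced Xbp1 mRNA. Of 10 transcripts that IRE1 cleaves, 4 were lower and 1 higher, with a median of -0.17 that lay between -0.36 (without the third combination library) and -0.073 (without the first) when 1 library was left out.

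**Figure D3:**
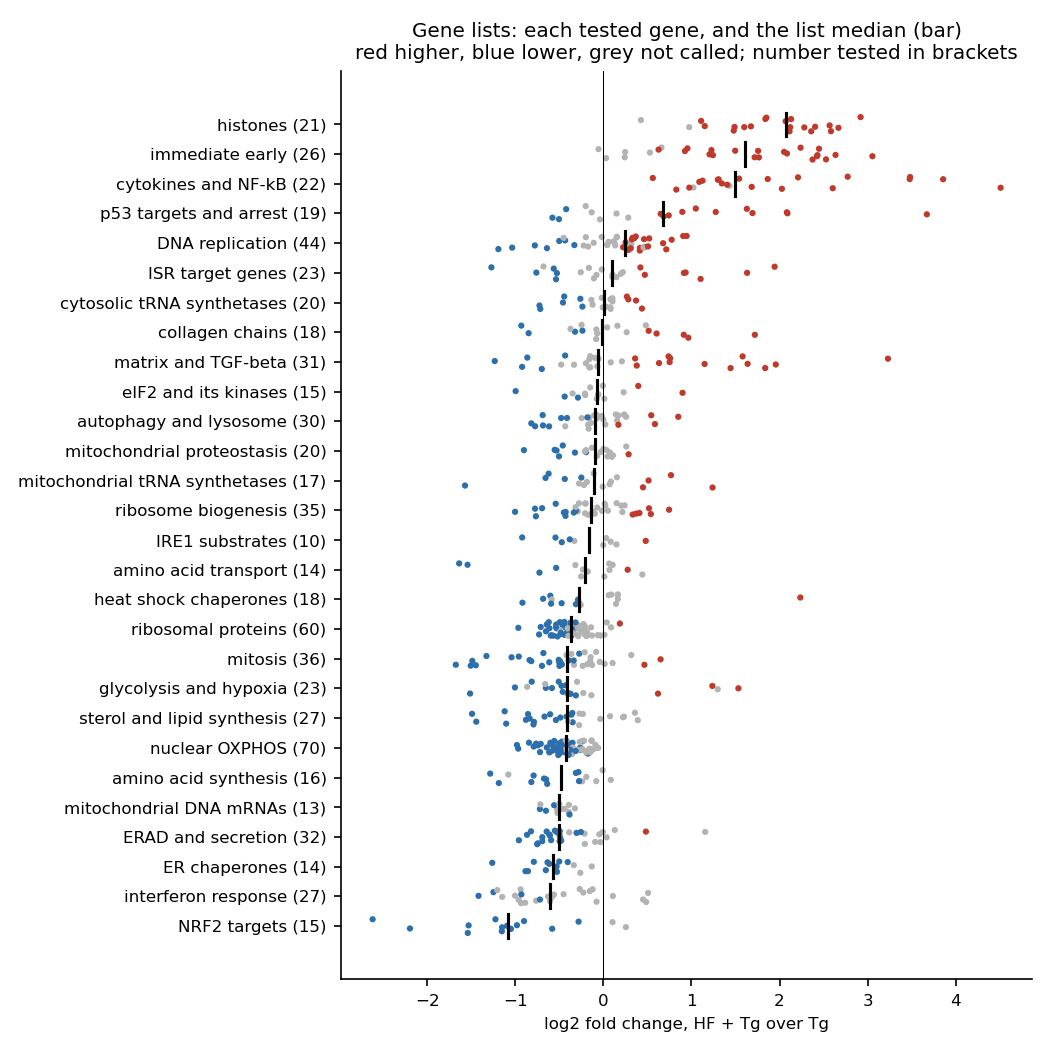
Log2 fold change for halofuginone with Tg over Tg of each tested gene in 28 gene lists (points), with the list median as a bar and the number of tested genes in brackets. Histones (median 2.07), immediate early genes (1.61) and cytokines (1.49) lie at the top and NRF2 targets (-1.09) at the bottom, and the ISR targets spread to both sides of 0.

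Nuclear-encoded subunits of the respiratory chain were lower by small amounts, with 48 of 70 lower, none higher and a median of -0.43. Ndufb9 and Ndufa8, accessory subunits of complex I, had the largest falls. Ndufb9 stood at 184, 172 and 138 CPM with Tg and at 87.6, 91.1 and 71.4 CPM with both (-0.98 ± 0.122, adjusted p = 9.52e-08), and Ndufa8 at 105, 85.1 and 84.2 CPM and at 50.3, 46.1 and 43.7 CPM (-0.97 ± 0.105). The groups were separate for both. The count of lower genes was 27 without the third combination library and 25 without the first Tg library, while the median over all such omissions stayed between -0.54 and -0.33. Of the 13 mRNAs of mitochondrial DNA 4 were lower, 0 without the third combination library, 1 without the first Tg library and 8 with the replicate number as a block.

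Cytosolic ribosomal protein genes were lower in 30 of 60 cases and higher in 1, with a median of -0.37. Rps15, a protein of the small subunit, stood at 580, 534 and 457 CPM with Tg and at 345, 323 and 277 CPM with both (-0.73 ± 0.146, adjusted p = 0.000128). The count of lower genes was 13 without the third combination library, 10 without the first Tg library, 20 without the second and 46 with the replicate number as a block. Ribosomal protein genes have many processed copies, and their counts are uncertain to that extent. Ribosome biogenesis genes were mixed, with 6 of 35 higher (17.1%), among them the assembly factor Tsr1 (0.75 ± 0.0889). A further 10 were lower (28.6%), among them Ebna1bp2 (-1.0 ± 0.156). Over all tested genes the shares were 22.8% and 22.5%. The count of lower genes was 5 without the third combination library and 6 without the first Tg library.

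Sterol and fatty acid synthesis genes were lower in 17 of 27 cases and higher in none, with a median of -0.42 (20 lower and 3 higher with the replicate number as a block). The mevalonate enzymes Mvd and Hmgcs1 led. Mvd stood at 137, 117 and 122 CPM with Tg and at 42.4, 50.8 and 40.2 CPM with both (-1.49 ± 0.206, adjusted p = 6.08e-07), and Hmgcs1 at 240, 270 and 251 CPM and at 93.9, 111 and 74.2 CPM (-1.45 ± 0.186). The desaturase Scd2 fell by 1.12. The groups were separate for these genes, whereas Insig1 (0.075) and Srebf2 (0.23), also regulated by sterols, were not called.

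Halofuginone is known for blocking collagen production, so collagen chains and matrix genes were examined. Of 18 collagen chains 5 were higher (27.8%) and 4 lower (22.2%), against 22.8% and 22.5% of all tested genes. Without the second combination library 6 were higher and 2 lower. The median with all libraries was -0.014. The sign of this median was not stable, at 0.067 without the second combination library and 0.071 without the third Tg library. Col1a1 stood at 3290, 2984 and 4001 CPM with Tg and at 3274, 2573 and 3935 CPM with both (-0.071 ± 0.174, adjusted p = 0.769), with overlapping groups. Col8a1 rose from 58.7, 56.5 and 63.7 CPM to 213, 181 and 195 CPM (1.72 ± 0.133, adjusted p = 1.19e-11), and Col3a1 fell from 871, 936 and 851 CPM to 551, 505 and 418 CPM (-0.85 ± 0.179, adjusted p = 0.000240). Among 31 matrix modifiers, TGF-beta targets and myofibroblast genes tested of 32 listed, 13 were higher (41.9%) and 5 lower (16.1%). Of all tested genes 22.8% were higher and 22.5% lower. The median of this list was -0.058 and lay between -0.075 and 0.15 when 1 library was left out. The matricellular gene Cyr61 (1.96 ± 0.231) and the TGF-beta targets Skil (1.84 ± 0.202) and Smad7 (1.15) rose with Ctgf. The collagen prolyl hydroxylase P4ha2 fell by 1.24, the collagen chaperone Serpinh1 by 0.92 and the crosslinking enzyme Lox by 0.87 on the log2 scale.

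Further lists were smaller or more divided. Of 18 cytosolic heat shock genes 7 fell and only Hspb1 rose, from 2.57, 2.30 and 2.69 CPM to 12, 8.67 and 15 CPM (2.24 ± 0.215). With the replicate number as a block there were 9 falls and 2 rises, and without the second combination library or the third Tg library 4 falls. Of 23 glucose and hypoxia genes 13 fell, with the phosphofructokinase Pfkm (-1.52 ± 0.134) and Pfkl (-1.01 ± 0.118) in front, and 3 rose, with the bifunctional regulator Pfkfb4 (1.53 ± 0.175) in front. Of 27 interferon-stimulated genes tested among 29 listed, 4 fell (14.8%), a smaller share than the 22.5% of all tested genes. That count was 0 without the third combination library or without the second Tg library, 2 without the second combination library, and 15 with the replicate number as a block. Of 30 autophagy and lysosome genes 4 rose (13.3%) and 8 fell (26.7%), or 7 and 11 with the block. Atg13 (-0.82 ± 0.116) and the sialidase Neu1 (0.85 ± 0.209) were at the ends.

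Fibroblast markers were present in every library, with summed levels of 11181 to 12570 CPM with Tg and 9488 to 11241 CPM with both, and 3 of 12 lower. Of all tested genes 22.8% were higher and 22.5% lower. The sum of 8 epithelial markers was 2.64 to 6.07 CPM and 10.1 to 13.2 CPM, with 3 of 5 tested higher. That of 8 endothelial markers was 1.16 to 1.52 CPM and 2.51 to 3.16 CPM, with 1 of 6 tested higher. That of 7 immune markers was 4.49 to 5.11 CPM and 2.84 to 4.09 CPM, with 2 of 3 tested lower. The 6 muscle markers summed to at most 0.163 CPM and 5 adipocyte markers to at most 3.12 CPM. The sum of 6 neural markers, Tubb3 among them, was 265 to 280 CPM and 103 to 119 CPM, with 1 higher and 1 lower of 3 tested. Emcn, Cldn5, Erg, Cd3e, Myod1, Myf5, Des, Ckm, Actc1, Sox2, Gfap, Adipoq, Plin1, Cidec and Lep had at most 3 counts in each of the 6 libraries.

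Fold changes were related to the length of the transcript. Lengths from GENCODE M21 were available for 13238 of 13365 tested protein-coding genes. In the quintile with the shortest transcripts (median 1200 bases), the median log2 fold change was -0.28, with 12.1% of genes called higher and 36.5% lower. In the quintile with the longest (median 6440 bases), it was 0.26, with 37.8% higher and 13.2% lower. The 3 quintiles between were at -0.12, -0.03 and 0.07. The same order held in each same-numbered pair of libraries, with -0.34, -0.25 and -0.20 in the shortest quintile and 0.34, 0.19 and 0.20 in the longest for replicates 1, 2 and 3. For halofuginone over DMSO, which shares no library with this comparison, the shortest and longest quintiles were at -0.42 and 0.37.

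The median transcript length was 870 bases for respiratory chain genes and 882 bases for ribosomal protein genes, against 2938 bases over genes with a length. Lists with similar medians held longer transcripts, with 3698 bases for sterol genes and 2962 bases for mitotic genes. Histone genes, with a median of 727 bases, were higher. The part of length in the changes of these lists was not tested. Coding GC content ran the other way, from 0.12 in the quintile lowest in GC to -0.15 in the highest. The share of proline codons (CCN), of interest because halofuginone blocks charging of the proline tRNA, had no such order, with medians of -0.05, 0.00, 0.00, -0.04 and -0.04 from the lowest to the highest quintile, the second lying just under 0. These are descriptions across genes, which are not independent replicates.

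**Figure D4:**
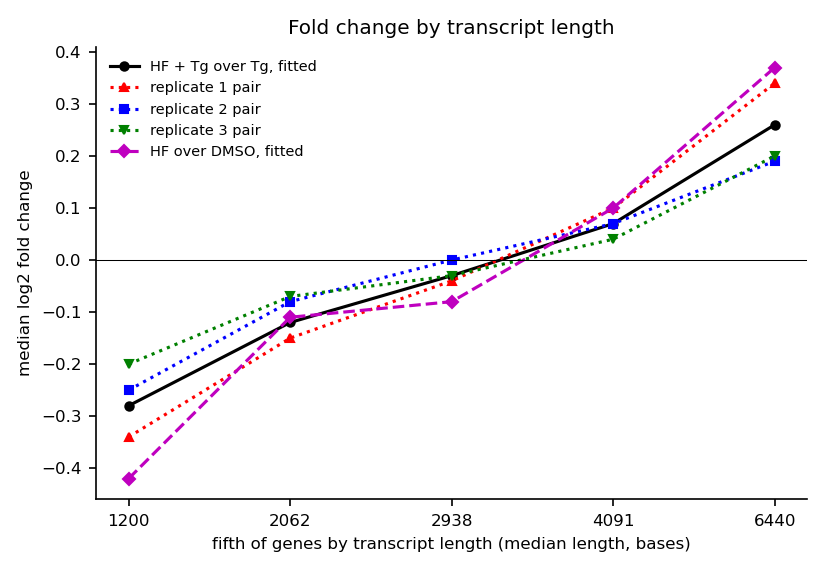
Median log2 fold change (y axis) of protein-coding genes in quintiles by transcript length, labelled by the median length of each quintile in bases (x axis). The black line is the fitted comparison of halofuginone with Tg over Tg, rising from -0.28 to 0.26, dotted lines are the 3 same-numbered library pairs, and the dashed line is halofuginone over DMSO.

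The effect of halofuginone was next compared between cells with and without Tg. Of the 7276 genes called here, 6130 (84.2%) were also called in the same direction for halofuginone over DMSO, which is 56.0% of the 10949 genes called there, and 199 were called in opposite directions. Halofuginone over DMSO had 34.7% of all tested genes called higher and 33.4% called lower. By the test of the difference between the 2 effects, 2412 genes (15%) had a more positive effect with Tg and 2635 (16.4%) a more negative one. Among the 6130 shared genes, 2288 had a smaller change with Tg, 71 a larger one, and 3771 no called difference. Scaling by library size alone moved the share of more positive differences from 47.8% to 58.2% and the median difference of all genes to 0.10, so differences of that size are not read here.

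ISR genes had the largest median difference of the 28 lists, -2.52. Their median was 2.36 for halofuginone over DMSO and 0.10 over Tg, and the effect was more negative with Tg for 21 of 23 genes and more positive for none. Tg alone against DMSO had a median of 2.37 for these genes and the combination against DMSO also 2.37, the 3 comparisons sharing the DMSO libraries. Ddit3 stood at 149, 173 and 125 CPM with halofuginone alone, so that it rose by 3.45 ± 0.227 over DMSO and fell by 0.76 over Tg, a difference of -4.21 ± 0.301 (adjusted p = 1.52e-11). Atf4 rose by 1.20 ± 0.108 and fell by 0.54, a difference of -1.74 ± 0.152 (adjusted p = 4.69e-10). Chac1, which rose in both settings, did so by 4.25 ± 0.228 without Tg and 0.91 with it. Amino acid synthesis genes had a median of 0.88 without Tg and -0.48 with it, with a more negative effect for 15 of 16.

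Cytokine genes had medians of 3.28 without Tg and 1.49 with it, and a more negative effect with Tg for 12 of 22. Lif reached 186, 209 and 156 CPM with halofuginone alone, a rise of 5.52 ± 0.167 over DMSO against 3.86 over Tg, and the 2 end levels differed by -0.41 ± 0.133 (adjusted p = 0.0351). Immediate early genes had nearly equal medians, 1.60 and 1.61, with 4 more positive and 4 more negative differences (15.4% each, against 15% and 16.4% of all tested genes). Their end levels were not equal. With both, 14 of 26 were lower than with halofuginone alone and 0 higher (median -0.53). In that comparison 5.83% of all tested genes were lower and 8.13% higher. Tg alone lowered 13 of 26 and raised 3 relative to DMSO, against 22.7% and 24.9% of all tested genes. Hbegf rose by 3.65 ± 0.202 and 3.48, a difference of -0.17 ± 0.261 (adjusted p = 0.659). NRF2 targets had medians of -0.90 and -1.09. Hmox1 was not called without Tg (0.36 ± 0.164, adjusted p = 0.0542), and its difference was -2.98 ± 0.235 (adjusted p = 7.84e-11).

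Sterol genes and DNA replication genes were affected in the opposite sense. Sterol genes had a median of -1.60 without Tg and -0.42 with it, with a more positive effect for 25 of 27. Hmgcs1 fell to 30.3, 33.0 and 34.3 CPM with halofuginone alone (-3.74 ± 0.205 over DMSO), a difference of 2.30 ± 0.263 (adjusted p = 7.23e-08). DNA replication genes had medians of -0.62 and 0.24, with a more positive effect for 34 of 44 and a more negative one for none. Among the genes named for this comparison, Slco4a1, an organic anion transporter, stood at 1.33, 1.67 and 3.21 CPM with halofuginone alone and at 21.9, 15.2 and 39.0 CPM with both (3.88 ± 0.518, adjusted p = 4.26e-06). It fell by 2.24 over DMSO and rose by 1.64 ± 0.351 over Tg, whereas Atf4, Ddit3, Cth and Slc3a2 were among the named genes called in the reverse order.

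**Figure D5:**
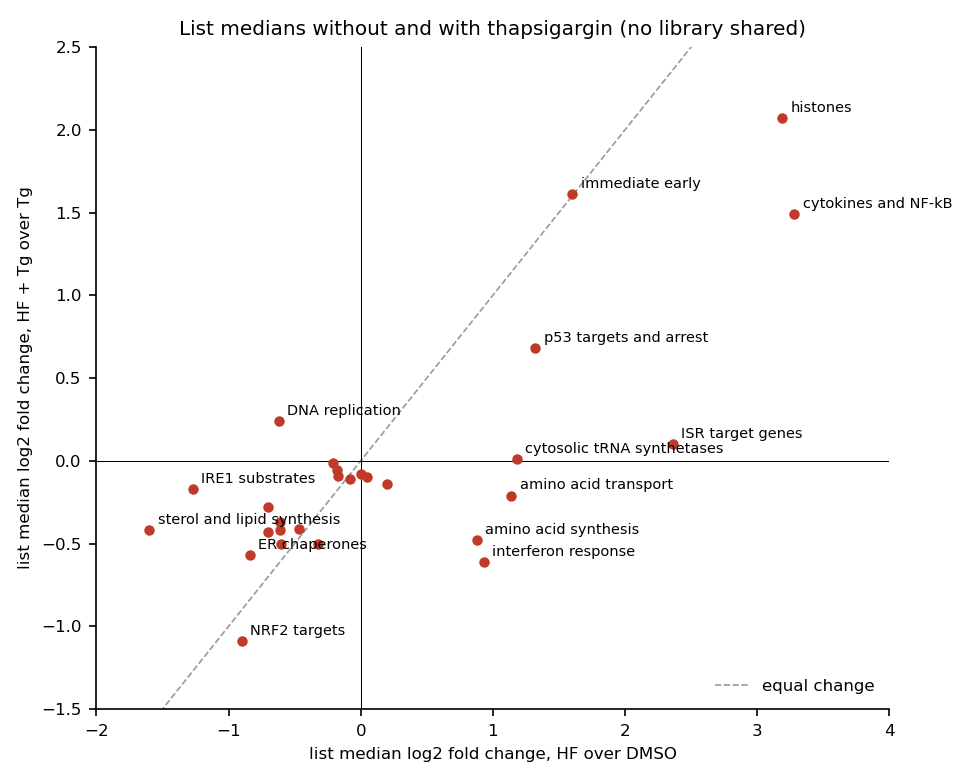
Median log2 fold change of each gene list for halofuginone over DMSO (x axis) and for halofuginone with Tg over Tg (y axis) in WT cells, 2 comparisons that share no library; the dashed line marks equal change. Immediate early genes lie on the line at 1.60 and 1.61, ISR targets lie far to the right of it at 2.36 and 0.10, and sterol genes lie to the left of it at -1.60 and -0.42.

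The compound added to Tg made a difference, as seen by comparing halofuginone with BtdCPU, both with Tg, in WT cells. Their doses are not given in the sources used here, so this is a comparison of the libraries as treated and not of potency. Halofuginone with Tg was higher for 2752 genes (17.1%) and lower for 2630 (16.4%), and 51.1% of these calls were higher, against 41.0% with scaling by library size alone. Over Tg alone, a comparison that shares the Tg libraries with the main one, BtdCPU had 372 called genes. Cytokine genes were higher with halofuginone for 16 of 22 and lower for none (median 0.97). Il11 was at 6.73, 9.38 and 4.93 CPM with BtdCPU and Tg, a difference of 4.16 ± 0.211 (adjusted p = 2.66e-15), and Lif at 18.4, 16.7 and 16.7 CPM (3.00 ± 0.145). Immediate early genes were higher for 19 of 26 and histones for 18 of 21.

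NRF2 targets were lower with halofuginone than with BtdCPU for 12 of 15 (median -0.80), with Hmox1 at 368, 338 and 234 CPM under BtdCPU and Tg (-2.27 ± 0.170, adjusted p = 1.73e-11). Atf4 differed by -0.37 ± 0.107 (adjusted p = 0.00724) and Chac1 by 0.90 ± 0.195 (adjusted p = 0.000570). Ddit3 (-0.26 ± 0.202, adjusted p = 0.351), Asns (0.11 ± 0.103, adjusted p = 0.459), Trib3 (-0.19 ± 0.260, adjusted p = 0.627), Psat1 (-0.034 ± 0.111, adjusted p = 0.850) and Hspa5 (0.056 ± 0.141, adjusted p = 0.802) had no called difference, which does not show that the compounds act alike. ER chaperones were lower for 4 of 14 with a median of -0.14.

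In PERK -/- cells the same addition had another outcome for ISR genes. By the test of the difference between genotypes, the effect was more positive in the null cells for 2548 genes (15.9%) and more negative for 2711 (16.9%). The 2 lines may differ by more than the targeted gene: Kdm5d, a Y-linked gene, was at 51.5, 51.0 and 43.9 CPM in WT Tg libraries and at 0, 0 and 0.187 CPM in null ones, and the line and the genotype cannot be told apart. Of 23 ISR genes 19 had a more positive effect in null cells and none a more negative one (median difference 1.53). Ddit3 rose there from 47.4, 60.3 and 35.8 CPM to 195, 252 and 201 CPM (2.18 ± 0.212), a difference from WT of 2.94 ± 0.292 (adjusted p = 5.21e-09). Its end level in the null cells was close to the 212, 238 and 160 CPM of WT cells with both agents. Asns (1.34 ± 0.146), Trib3 (2.71 ± 0.376), Cth (3.44 ± 0.327) and Hspa5 (1.54 ± 0.200) differed likewise.

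Secreted and immediate early genes did not follow that order as a group. Cytokine genes had 7 more positive and 5 more negative differences, with Il11 rising by 2.19 ± 0.238 in null cells, to 6.35, 4.36 and 6.46 CPM, and by 4.51 in WT (difference -2.32 ± 0.317, adjusted p = 1.04e-06), while Lif rose by 3.97 ± 0.166 and 3.86 (0.11 ± 0.210, adjusted p = 0.746). Immediate early genes had 4 and 8. Hmox1 was level in null cells at 92.5, 110 and 116 CPM and at 95.5, 115 and 103 CPM (-0.023 ± 0.162, adjusted p = 0.931), a difference from WT of 2.60 ± 0.233 (adjusted p = 1.10e-09). The NRF2 list as a whole did fall in null cells, with 12 of 15 lower, 1 higher and a median of -0.61. Of all tested genes, 27.5% were lower and 25.2% higher there. Its genotype difference was more positive for 5 genes and more negative for 3 (median 0.11). Ribosome biogenesis genes had a more positive effect in null cells for 31 of 35 (median difference 1.27), and DNA replication genes a more negative one for 20 of 44.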

How the data were processed

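The authors deposited 1 table of estimated counts per gene for 36 RNA-seq libraries, made from their reads with no scaling stated. Zeros appear in it as 0.025 (50.6% of entries), and 2.69% of the remainder are fractional. The kit is strand-specific, per the labels' protocols; the genome build GRCm39 and DESeq are named in the submitters' processing notes, and the aligner, counter, annotation and strand setting are not given in the sources used here.

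Values were rounded to whole counts. Gene entries turned into dates (27 rows, 0.206 to 0.278% of counts) were left out, and 39 symbols on 86 rows were summed. edgeR 4.0.16 (R 4.3.3) with TMM scaling, filterByExpr and a robust quasi-likelihood fit of 12 group means gave 24 residual degrees of freedom and a common dispersion of 0.0199. Benjamini-Hochberg adjustment ran over all 16065 genes, which were called under 0.05. SE is the log2 fold change divided by the root of F. In simulated data for this comparison on 16065 genes, 100 genes were changed by 0.5 and 100 by 1 on the log2 scale. Of these, 38% and 92% were recovered. The adjustment is stricter when so few genes change than in the real data, where 7276 were called. No 2 replicates agreed within sampling noise (smallest chi-square per degree of freedom 9.06).

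Same-numbered libraries of the 2 groups deviated together (r = 0.162, 0.201 and 0.308 for replicates 1, 2 and 3), so the numbers were taken to pair them, and the blocked value is given where it changes the call of a named gene or moves a list's count by over 1.5 times. The pairing rests on these correlations, not on a label.

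Named genes were 11 fixed readouts, the 12 largest rises and 12 largest falls with no overlap between groups, and up to 3 rises and 3 falls per list or other comparison, all but the readouts restricted to an average log2 CPM of 2 or more; list members outside that rule were chosen after their values were seen. The members and lists were chosen with earlier results of these data known. No p-value was computed over a list. Promoters come from RefSeq (GRCm38.p6) and transcript lengths from GENCODE M21, matched by symbol (11802 and 13238 tested genes), and no coordinates of GRCm39 were used. Alternatives were RLE or library-size scaling, no filter, DESeq2 1.42.0, only the compared groups, a replicate block and leaving out each library.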

Additional observations from a re-analysis of the deposited data

Results flagged for a closer look

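The effect of halofuginone over Tg in WT cells differed from its effect over DMSO for 5047 genes by the test of the difference (edgeR, adjusted p under 0.05). Among the genes named by rule, the difference (with Tg minus without) was -1.33 for Eprs, -1.74 for Atf4, -4.21 for Ddit3, -1.84 for Asns, -3.34 for Chac1, -3.76 for Trib3, -1.01 for Psat1, -1.75 for Hspa5 and -0.79 for Dnajb9 on the log2 scale. Slco4a1 (3.88) and Trib2 (3.54), a pseudokinase at 3.16, 3.11 and 2.5 CPM with Tg and 1.88, 1.90 and 2.01 CPM with both, were positive, and Car6, a secreted carbonic anhydrase, differed by -7.36. Car6 was at 0.171, 0.0843 and 0 CPM in DMSO, so its size is poorly determined.

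The effect of halofuginone over Tg also differed between PERK -/- and WT cells, for 5259 genes. The difference (null minus WT) was 1.01 for Eprs, 0.74 for Atf4, 2.94 for Ddit3, 1.34 for Asns, 1.53 for Chac1, 2.71 for Trib3, 0.69 for Psat1, 1.54 for Hspa5, 1.47 for Dnajb9 and 5.89 for Car6. Genes with a group at 3 counts or fewer in every library are left out here, because their fitted differences depend on the prior count.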

How the results depend on the processing

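All 4 counts of called genes stayed within 1.5 times of the reported one under every alternative run. For halofuginone with Tg over Tg (7276), scaling by RLE gave 7289, library size alone 7263, no filter 6989, DESeq2 7511, only the compared groups 6041, and leaving out 1 library 6010 to 7014. The replicate block gave 8597 calls, against 6864 for the difference with and without Tg (5047 without the block), 6991 for halofuginone against BtdCPU (5382) and 6859 for the genotype difference (5259). Beside Hspa5, no call of a named gene in the main comparison changed with the block.

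Of 164 named genes, 130 kept their direction and side of the threshold in every alternative. Values near 0 changed sign when a library was left out: Eif2ak4 to 0.012, 0.081 and 0.11 (without the first or second combination library or the third Tg library), Eprs to -0.0034 (without the second Tg library), and Asns to 0.0079 and 0.033 (without the third combination library or the first Tg library). Leaving out 1 library at a time gave -0.14 to 0.11 for Eif2ak4, -0.0034 to 0.14 for Eprs, -0.055 to 0.033 for Asns and -0.083 to 0.12 for the ISR median. The ISR median became -0.023 without the second combination library and -0.083 without the third Tg library. The collagen median became 0.0047, 0.067 and 0.071 without the first or the second combination library or the third Tg library, and that of cytosolic tRNA synthetases (0.011) became -0.0014 and -0.045 without the second combination or the second Tg library. Counts for the lists of ribosomal proteins, interferon genes and mRNAs of mitochondrial DNA also moved: with no filter, 38, 16 and 13 genes were lower, against 30, 4 and 4. The cause of these changes was not tested.

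In the simulated data far fewer genes changed than were called here, so the share recovered there does not carry over to this comparison. Some changes under 0.5 on the log2 scale were called, such as Psat1 at -0.28, and how many were missed is not known. A gene not called is not shown to be unchanged.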

Other observations

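Rnr1 and Rnr2, listed under the symbols of the mitochondrial ribosomal RNAs, were higher with BtdCPU and Tg than with halofuginone and Tg. Rnr2 was at 505, 493 and 427 CPM with Tg, at 314, 283 and 220 CPM with halofuginone and Tg, and at 2106, 2217 and 6721 CPM with BtdCPU and Tg, and halofuginone differed from BtdCPU by -3.76 ± 0.307 (edgeR, adjusted p = 1.27e-10). Rnr1 was at 508, 474 and 1034 CPM with BtdCPU and Tg, against 59.7, 60.1 and 78.4 CPM with halofuginone and Tg.

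Ccl20, a chemokine of lymphocytes and dendritic cells, had no count in any of the 3 DMSO libraries and was at 9.47, 17.7 and 11.5 CPM with Tg, at 5.79, 13.6 and 5.43 CPM with halofuginone and at 17.0, 23.0 and 14.2 CPM with both. Halofuginone over Tg was not called for it (0.49 ± 0.364, adjusted p = 0.289), and the groups overlapped. Pdpn, Lhx8 and Hoxc9, which the naming rule also picked, stayed at or under 0.255 CPM in the 6 libraries of the main comparison, and no fold is given for them.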
